A study of Homo sapiens with 17 samples.

Results

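The genes described here encode the receptors and signal transducers of the bone morphogenetic protein (BMP) pathway in CHP-134, a human neuroblastoma cell line. They were chosen by symbol and number 10 of the 60662 genes listed in both count tables: the type I receptors BMPR1A, BMPR1B and ACVR1, the type II receptors BMPR2, ACVR2A and ACVR2B, the BMP-regulated SMADs SMAD1, SMAD5 and SMAD9, and the common SMAD, SMAD4. The study asked how CHP-134 cells, which die in retinoic acid, use BMP signalling when they do so. RNA sequencing covered 17 libraries in 6 groups. In culture, cells received all-trans retinoic acid (ATRA) at 2 µM over 1, 3 or 6 days, or DMSO, the solvent (2 libraries a group). In mice, luciferase-labelled CHP-134 cells were injected under the skin of adult female athymic nude mice, which lack T cells but keep other leukocytes, fibroblasts and vessels of their own. Of these tumors, 4 came from mice given 13-cis retinoic acid at 25 mg/kg by mouth 2 times a day (RA tumors). The other 5 came from control mice (control tumors), labelled untreated and described in the study as given vehicle. For tumors in which it measured retinoid, the study gives collection within weeks of the last treatment. The time from the last dose to RNA collection is not stated. All libraries thus come from 1 cell line, and the transcripts were measured in bulk, so fewer cells of a type and less RNA per cell cannot be told apart. The study describes heavy cell death by 6 days, so values at that time are those of the cells that remained. The labels do not say whether the libraries of a culture group came from separate cultures, and p-values there measure only the spread between these libraries.

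A BMP ligand binds a complex of type I and type II receptor kinases. The type II receptor phosphorylates the type I receptor, which phosphorylates SMAD1, SMAD5 or SMAD9, and these pair with SMAD4 and switch genes on or off in the nucleus. The pathway shapes the sympathetic lineage from which neuroblastoma arises, and the ID genes are its best known direct targets. SMAD9, also called SMAD8, is a weaker activator than SMAD1 and SMAD5 and is itself induced by BMP in several cell types. BMPR2 binds BMPs, whereas ACVR2A and ACVR2B bind both activins and BMPs, and SMAD4 serves the TGF-beta and activin branches as well.

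SMAD1 had the widest rise and SMAD9 the widest fall of the 10 genes at 6 days of ATRA, so the bases before a start site of each are shown, with 2 kinds of match in capitals. All 10 genes had at least 1 promoter in RefSeq (GRCh38.p14), 18 start sites in all, and the 250 bases before each were searched on both strands for AGGTCA (the half-site of retinoic acid receptors), a pair of such half-sites as direct repeats 2 or 5 bases apart, GGCGCC and GTCTAGAC (letters bound by BMP-regulated SMADs) and CACGTG (an E-box). The capitals mark GGCGCC in SMAD1 (chr4:145482084-145482333, plus strand, 1 of its 5 start sites, in an intron of longer transcripts) and CACGTG in SMAD9 (chr13:36920239-36920488, minus strand). The SMAD1 start shown lies 481 bases from the start of the canonical SMAD1 transcript in GENCODE. The window before that canonical start held no match to any of these motifs.
SMAD1: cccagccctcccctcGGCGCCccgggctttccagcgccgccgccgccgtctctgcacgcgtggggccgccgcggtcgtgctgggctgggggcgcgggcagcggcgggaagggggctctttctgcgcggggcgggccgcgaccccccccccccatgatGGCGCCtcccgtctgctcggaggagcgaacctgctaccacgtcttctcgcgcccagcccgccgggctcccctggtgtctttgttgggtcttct
SMAD9: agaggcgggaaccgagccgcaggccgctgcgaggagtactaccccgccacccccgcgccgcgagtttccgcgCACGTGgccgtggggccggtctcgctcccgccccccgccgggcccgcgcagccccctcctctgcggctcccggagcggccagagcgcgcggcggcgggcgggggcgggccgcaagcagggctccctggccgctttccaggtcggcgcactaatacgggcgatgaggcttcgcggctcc
GGCGCC lay before 5 of the 18 start sites (ACVR1, BMPR2, SMAD1 and SMAD4) and before 16.4% of all 35116 RefSeq start sites. AGGTCA lay before 2 of the 18 (BMPR1A, with 2 matches, and another SMAD1 start) and before 12.1% of all. CACGTG lay before 2 of the 18 (SMAD9 and another SMAD1 start) and before 6.34% of all. The paired sites contain the half-site, and no other motif overlaps another. The paired sites and GTCTAGAC, which lie before 0.00285% (either spacing) and 0.182% of all start sites, were not found in these windows, and no binding was measured in these libraries.

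The culture libraries held 31607051 to 39422897 counts and the tumor libraries 17266558 to 29078889 counts. Neuroblastoma markers summed to 2465 to 3808 CPM (counts scaled to a common library size) in culture and 2640 to 4257 CPM in tumors. CDH5 of the endothelial list and PTPRC of the leukocyte list stayed under 10 counts in all 17 libraries, while other markers of both lists did not. The summed endothelial list was nonetheless at 145 to 156 CPM after 6 days of ATRA, against 1.58 to 2.06 CPM in DMSO, with 5 of its 7 markers under 10 counts (CLDN5 and VWF were above), and the leukocyte list at 19.7 to 20.3 CPM, against 0.273 to 0.562 CPM, with 5 of 7 under 10 counts. The 9 fibroblast markers, some of which CHP-134 cells express in culture, summed to 78.7 to 81.5 CPM at 6 days, against 147 to 153 CPM in DMSO. In control tumors the endothelial list summed to 2.56 to 7.67 CPM and the leukocyte list to 2.09 to 3.94 CPM, with 4 of 7 markers under 10 counts in each. RA tumors had 2.61 to 5.06 and 1.66 to 2.63 CPM. Against DMSO cells, control tumors had 1 of 3 endothelial, 3 of 3 leukocyte and 2 of 3 Schwann cell markers tested called higher (all genes, 31.5%). There, 1 Schwann cell marker and 1 of 2 skin markers were called lower (11.4%). The part of these lists in the results below was not tested. RARB, a direct retinoic acid target that checks the treatment labels, was at 27.8 and 28.4 CPM after 6 days of ATRA, against 0.982 and 0.750 CPM in DMSO. It was at 6.85 to 9.75 CPM in RA tumors, against 2.85 to 3.94 CPM in control tumors. Control tumor 4 stood apart from the other control tumors: it had 14.9 CPM of ID1 and 4.79 CPM of SMAD6, where the other 4 had 1.03 to 1.61 CPM of ID1 and 0.105 to 0.332 CPM of SMAD6, and its 9 fibroblast markers summed to 149 CPM, against 58.8 to 89.3 CPM in the other 4.

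All 10 genes were detected in every library and passed the filter on low counts in every fit. Levels between genes were compared as CPM per kilobase of exon, averaged over each group. SMAD9 led in all 6 groups, with 54.96 ± 1.17 CPM per kb in DMSO (SD, n = 2), and BMPR1B was lowest in all 6, with 0.192 ± 0.0309 CPM per kb in DMSO. In DMSO the order in between was SMAD5 (17.9), BMPR2 (16.1), ACVR2B (10.9), SMAD4 (7.88), ACVR2A (5.41), SMAD1 (4.85), BMPR1A (2.90) and ACVR1 (2.02), all in CPM per kb, and no neighbours overlapped between the 2 libraries. In RA tumors the neighbours BMPR2 and SMAD5, ACVR2B and ACVR2A, ACVR2A and SMAD4, and BMPR1A and ACVR1 overlapped. In control tumors this held for SMAD5 and BMPR2, SMAD4 and ACVR2A, and BMPR1A and ACVR1. The type I receptors were the scarcest class of transcript: BMPR1A, ACVR1 and BMPR1B filled the lowest 3 ranks in every group. The ranks in the middle depend on the length used. With the longest transcript in place of all exons, SMAD4 took rank 3 in DMSO and ACVR2B and BMPR2 each moved down, and at 6 days SMAD1 ranked above SMAD9.

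**Figure D1:**
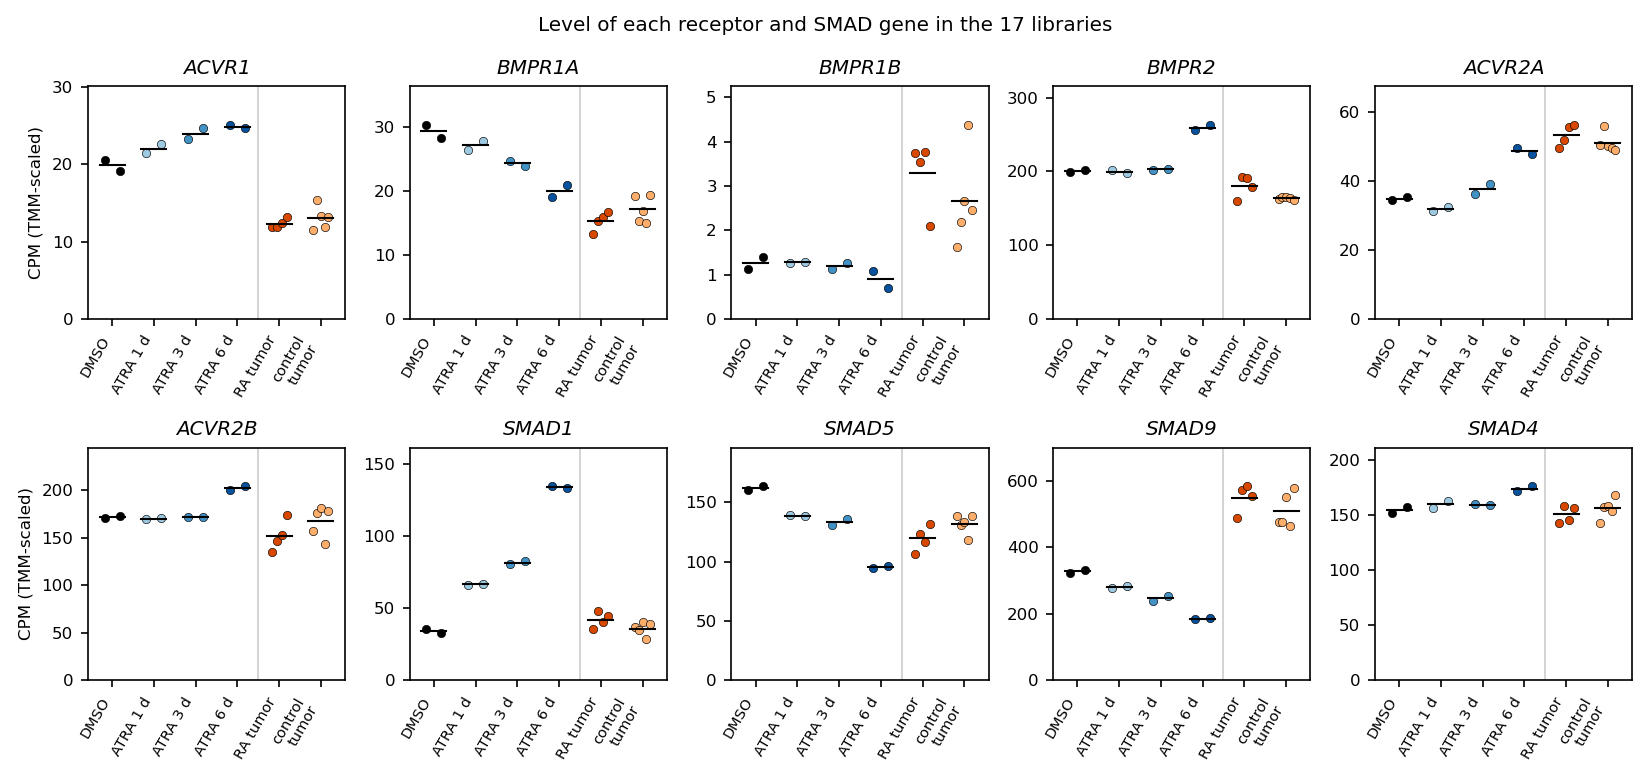
Level of each of the 10 genes in CPM (TMM-scaled over all 17 libraries; vertical axes differ and start at 0). Each point is a library and each bar is a group mean (2 libraries in each culture group, 4 RA tumors, 5 control tumors). SMAD1 climbs over the days of ATRA to 134.4 and 133.4 CPM while SMAD9 drops to 185 and 187 CPM, and in tumors the points of the 2 groups overlap for every gene.

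In culture, SMAD1 rose with ATRA, SMAD5, SMAD9 and BMPR1A fell, and the type II receptors, ACVR1 and SMAD4 rose by smaller amounts. A gene was called changed with an edgeR false discovery rate (FDR, Benjamini-Hochberg over all genes tested) under 0.05 and a change over 2-fold, and is said to rise or fall where the FDR alone was under 0.05. At 1 day 0 of the 10 genes were called, against 2.74% of all 20237 genes tested, and 4 passed the FDR alone, against 26.4%. For that 0, 6 of the 10 had an unadjusted p under 0.05 in edgeR, as did 7171 of all 20237 genes tested. At 3 days 1 was called (all genes, 7.87%) and 7 passed the FDR (45%), and at 6 days 1 was called (31.2%) and 9 passed the FDR (75.1%). At 6 days the share of the 10 that was called lay under that of all genes and the share past the FDR lay above it, and neither gap was tested. Their median log2 fold change at 6 days was 0.17, and that of all genes 0.041.

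SMAD1, the BMP-regulated SMAD with the lowest level in DMSO, had 35.9 and 32.9 CPM there, 66.2 and 67.0 CPM after 1 day, 80.5 and 82.4 CPM after 3 days and 134.4 and 133.4 CPM after 6 days. The libraries of a time lay close together, each later time lay above the one before it, and no times overlapped. Of genes with a mean count of at least 10, 62.1%, 72.6% and 87.7% did not overlap with DMSO at 1, 3 and 6 days. Over DMSO its log2 fold change came to 0.97 ± 0.040 (SE) at 1 day (FDR 7.0e-21), 1.27 ± 0.040 at 3 days (FDR 2.65e-25) and 1.92 ± 0.038 at 6 days (FDR 1.59e-32), a 3.80-fold rise. It was the only one of the 10 called at 3 or 6 days. The 1-day value lay just under the 2-fold threshold and passed it without DMSO library 1 (1.03). Each step also passed the FDR: 0.31 ± 0.036 between 1 and 3 days and 0.65 ± 0.034 between 3 and 6 days, where 34.5% and 68.1% of all genes passed. Neither step was over 2-fold for any of the 10, against 4.09% and 21.1% of all genes called. SMAD1-AS1, which overlaps 5.30% of the SMAD1 exon bases on the opposite strand, had 0 counts in all libraries.

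SMAD9, the most abundant of the set per kilobase, had 322.4 and 332.3 CPM in DMSO, 277.1 and 283.6 CPM at 1 day, 240.1 and 252.7 CPM at 3 days and 184.6 and 186.8 CPM at 6 days. Every later time lay below the one before it, with no overlap, as held against DMSO for 62.1% of genes at 1 day and 87.7% at 6 days. On the log2 scale it fell by 0.21 at 1 day, by 0.38 at 3 days and by 0.85 ± 0.026 at 6 days (FDR 2.13e-26 at 6 days), which left 55.4% of the DMSO level and did not reach 2-fold. SMAD5 had 160.6 and 163.5 CPM in DMSO, 139.0 and 138.3 CPM at 1 day, 131.1 and 136.3 CPM at 3 days and 94.8 and 96.4 CPM at 6 days. It fell by 0.21 at 1 day, 0.24 at 3 days and 0.79 ± 0.028 at 6 days. Most of the drop of SMAD5 came after 3 days: the step between 1 and 3 days was −0.035 ± 0.028 (FDR 0.359), and that between 3 and 6 days was −0.55 ± 0.029 (FDR 8.79e-19).

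**Figure D2:**
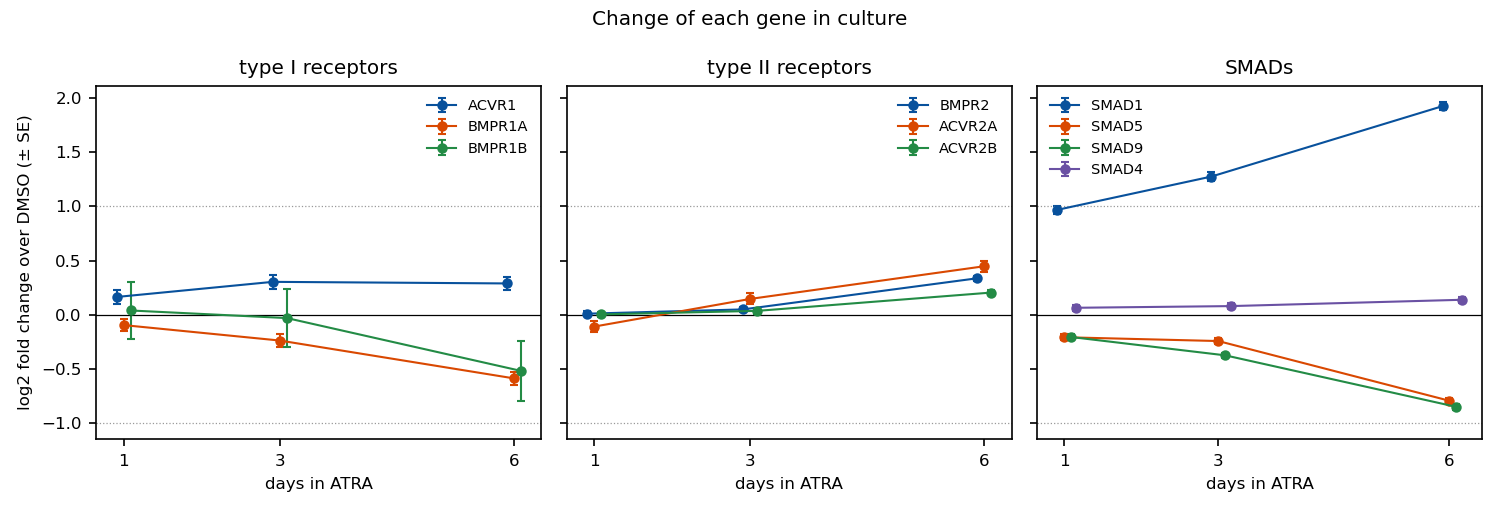
Log2 fold change over DMSO (± SE, edgeR; 2 libraries a group) at 1, 3 and 6 days of ATRA for the type I receptors, the type II receptors and the SMADs; dotted lines mark 2-fold. SMAD1 reaches 1.92, SMAD5 and SMAD9 reach −0.79 and −0.85, and the receptors stay between −0.59 and 0.45.

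The 3 BMP-regulated SMADs moved in opposite directions, so their make-up shifted. SMAD1 made up 6.24% ± 0.47 of their summed CPM per kb in DMSO, 13.1% ± 0.035 at 1 day, 16.98% ± 0.25 at 3 days and 31.1% ± 0.30 at 6 days (SD, n = 2 each). SMAD9 made up 51.4% ± 0.18 at 6 days, against 70.7% ± 0.50 in DMSO, and SMAD5 17.4% ± 0.13 at 6 days, against 23.1% ± 0.033 in DMSO. The ratio of SMAD9 to SMAD1 per kilobase was 10.7 and 12.0 in the DMSO libraries, 4.98 and 5.04 after 1 day of ATRA, 3.55 and 3.65 after 3 days and 1.64 and 1.67 after 6 days. With the length of the longest transcript, the SMAD1 share was 46.4% at 6 days, against 11.3% in DMSO, so the size of a share depends on the length and its direction does not. The summed level of the 3 genes was 60.6 ± 0.29 CPM per kb at 6 days, against 77.7 ± 1.10 CPM per kb in DMSO. With the longest transcript the sum was 87.7 CPM per kb at 6 days, against 92.5 CPM per kb in DMSO, so the size of that gap depends on the length as well.

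**Figure D3:**
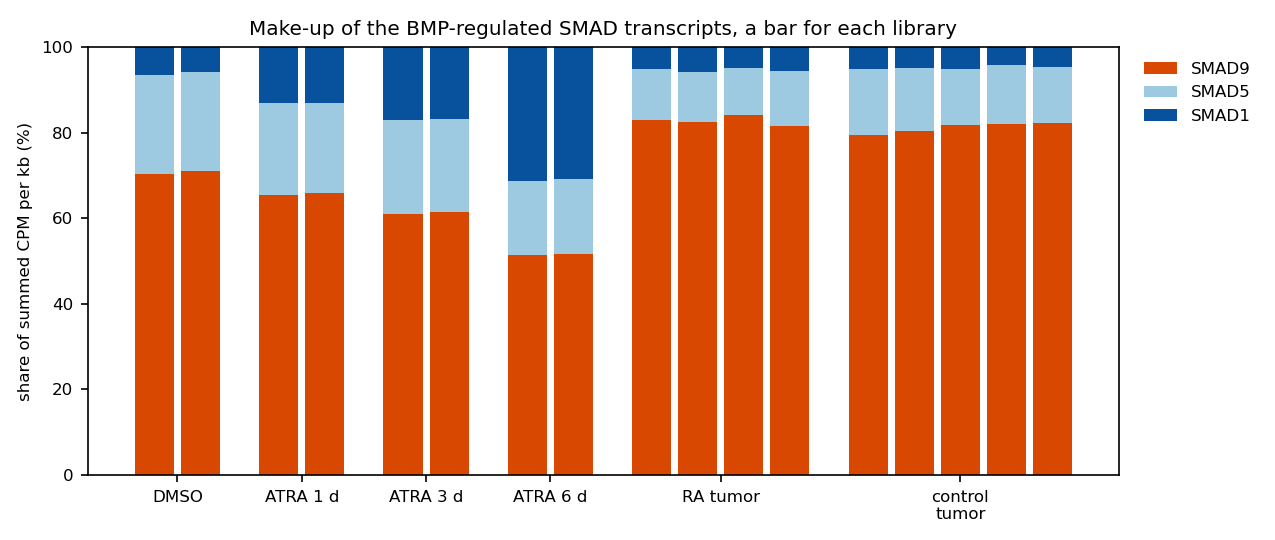
Share of SMAD1, SMAD5 and SMAD9 in their summed CPM per kilobase of exon (percent), with a bar for each of the 17 libraries, grouped by condition. The SMAD1 share grows over the days of ATRA to 30.9% and 31.4%, and in the tumors it lies between 4.25% and 5.80%, with SMAD9 at 79.5% to 84.0%.

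The type I receptors split. BMPR1A had 30.3 and 28.2 CPM in DMSO, 26.4 and 27.8 CPM at 1 day, 24.6 and 23.9 CPM at 3 days and 19.04 and 20.8 CPM at 6 days. It fell by 0.24 ± 0.059 at 3 days (FDR 0.00104) and 0.59 ± 0.061 at 6 days (FDR 7.01e-11) on the log2 scale, and was at −0.096 ± 0.057 at 1 day (FDR 0.239). ACVR1, the receptor kinase also known as ALK2, had 20.6 and 19.1 CPM in DMSO, 21.4 and 22.6 CPM at 1 day, 23.3 and 24.6 CPM at 3 days and 25.1 and 24.6 CPM at 6 days. It rose by 0.30 ± 0.062 at 3 days and 0.29 ± 0.062 at 6 days (FDR 8.89e-05), with every library above both DMSO libraries. In either direction, 72.6% of genes lay apart from DMSO at 3 days and 87.7% at 6 days. Its 1-day value of 0.16 ± 0.062 was at the edge of the threshold (FDR 0.0479), and in 7 of 9 other settings it did not pass. BMPR1B was scarce, at 0.705 to 1.41 CPM in the 8 culture libraries, with values of 1.09 and 0.705 CPM at 6 days and 1.119 and 1.41 CPM in DMSO; its log2 fold change of −0.52 ± 0.28 did not pass the FDR (0.0918), and without the first 6-day library it was −0.87 and passed. ACVR1 made up 54.4% of the summed type I level per kilobase at 6 days, against 39.5% in DMSO, and BMPR1A 42.6% at 6 days, against 56.8% in DMSO. The size of these shares depends on the length. With the longest transcript, ACVR1 was at 4.48 and BMPR1A at 4.56 CPM per kb in DMSO, and at 5.60 and 3.10 CPM per kb at 6 days.

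All 3 type II receptors rose by 6 days, and ACVR2A alone passed the FDR at 3 days. BMPR2 had 255.9 and 263.3 CPM at 6 days, where the 6 libraries of DMSO, 1 day and 3 days lay between 197.9 and 203.9 CPM. Its log2 fold change was 0.34 ± 0.024 at 6 days (FDR 4.55e-15). ACVR2B had 200.8 and 204.2 CPM at 6 days, and 169.8 to 173.1 CPM in the other 6 libraries, a rise of 0.20 ± 0.025 (FDR 3.49e-09), which did not pass with all 17 libraries in 1 fit (FDR 0.0691). ACVR2A had 34.5 and 35.3 CPM in DMSO, 31.3 and 32.6 CPM at 1 day, 36.2 and 39.1 CPM at 3 days and 49.4 and 47.9 CPM at 6 days. It rose by 0.15 ± 0.051 at 3 days (FDR 0.018) and 0.45 ± 0.049 at 6 days (FDR 3.26e-10), and its step between 1 and 3 days also passed (0.26 ± 0.051, FDR 0.000111). The 3-day value lost the FDR with DESeq2, with its size factors, with all 17 libraries in 1 fit, without DMSO library 1 and without the second 3-day library, and the step between 1 and 3 days lost it with all 17 libraries in 1 fit. ACVR2A shares 6.68% of its exon bases with ORC4 on the opposite strand, and the files do not state whether counting used strand: ORC4 was at 51.7 and 51.04 CPM at 6 days, against 41.4 and 41.8 CPM in DMSO, and its part in the ACVR2A value was not tested. Of the summed type II level per kilobase, BMPR2 made up 50.4% ± 0.52 at 6 days and 49.6% ± 0.057 in DMSO, ACVR2B 31.3% ± 0.064 at 6 days and 33.7% ± 0.019 in DMSO, and ACVR2A 18.3% ± 0.58 at 6 days and 16.7% ± 0.077 in DMSO (SD, n = 2 each). The groups did not overlap for any of the 3 shares, which depend on each other. Between these groups the CPM of 87.7% of genes with a mean count of at least 10 did not overlap either.

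SMAD4, the shared partner, had 151.6 and 157.4 CPM in DMSO, 156.6 and 162.4 CPM at 1 day, 160.0 and 158.7 CPM at 3 days and 171.7 and 175.8 CPM at 6 days. The rise of 0.14 ± 0.027 at 6 days passed the FDR (3.17e-05), as did 0.079 ± 0.028 at 3 days (FDR 0.0184), but the 3-day value lost it with DESeq2, with its size factors, with all 17 libraries in 1 fit and without any of 3 single libraries. The 6-day value lost it with all 17 libraries in 1 fit. A readthrough gene on the same strand shares 4.93% of the SMAD4 exon bases and had 3 to 9 counts in culture.

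Around these genes, the listed partners of the pathway gave the following counts at 6 days, when 31.2% of all genes were called (18.8% higher and 12.3% lower). Of 12 ID genes and other BMP targets, 10 were called lower and 1 higher (median log2 fold change −2.31, all genes 0.041): ID1 at −5.51, ID2 at −3.09, ID3 at −2.40 and ID4 at −1.31, with DLX5 the one called higher (2.31). These falls stood beside the rise of SMAD1. At 1 day, when SMAD1 was already at 0.97, none of the 12 was called, against 2.74% of all genes. With the FDR alone, 3 of the 12 were higher and 3 lower at 1 day, against 26.4% of all genes in either direction. Of 6 TGF-beta and activin receptors and SMADs tested, 2 were called lower, SMAD3 (−4.71) and TGFBR2 (−2.71); SMAD2, the other activin-regulated SMAD, was at −0.034 (FDR 0.23). Of 4 co-receptors tested, 2 were called lower, TGFBR3 (−1.62) and RGMA (−1.12). Of 8 ligands, 3 were called higher and 1 lower: BMP8B (1.16), GDF5 (26 and 32 counts at 6 days, against 1 and 3 counts in DMSO), BMP5 (10 and 13 counts at 6 days, against 0 and 0 in DMSO) and, lower, BMP2 (−1.10). Among 10 secreted antagonists tested, calls went in both directions: CHRD (2.31) and BMPER (5 and 20 counts at 6 days, against 4 and 2 in DMSO) were among those called higher, and GREM1 (−4.58), NOG (−2.17) and CHRDL1 (−1.12) among those called lower. Of 14 intracellular and membrane inhibitors, TOB1 (3.65) and SKIL (1.82) were called higher, and SMAD6 (−2.40), BAMBI (−2.01) and SMAD7 (−1.82) lower; SMAD6 and SMAD7 also stand in the list of targets. The counts for the TGF-beta components (2 of 6) and the inhibitors (5 of 14) lay near the share of all genes called, and no list was tested against it. FKBP1A, which encodes the protein that holds type I receptors inactive, fell by 0.32 (FDR 5.3e-09).

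In mice, no difference between RA and control tumors passed the test for any of the 10 genes. The count called was 0 of 10, against 0.284% of all 21098 genes tested, and 0 of 10 passed the FDR alone, against 1.62%. The FDR values ran over 0.295 to 0.750 in edgeR. At an unadjusted p under 0.05 there were 2 of the 10 (SMAD1 and BMPR2), and 3257 of all genes; DESeq2 also called 0 of the 10. The ranges of the 2 groups overlapped for all 10 genes, against 5.8% of genes whose ranges lay apart. Standard errors were 0.061 to 0.105 on the log2 scale for the 9 genes other than BMPR1B and 0.27 for BMPR1B.

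SMAD1 had 35.4, 48.0, 40.5 and 44.5 CPM in RA tumors, against 36.9, 35.2, 40.2, 28.7 and 38.8 CPM in control tumors. RA tumors 2, 3 and 4 lay above all 5 control tumors, and RA tumor 1 lay among them. The log2 fold change was 0.23 ± 0.10 (FDR 0.306). BMPR2 had 160.4, 192.8, 191.3 and 179.0 CPM in RA tumors, against 161.2 to 165.9 CPM in control tumors. Here too 3 RA tumors lay above the control range and RA tumor 1 did not, with a log2 fold change of 0.14 ± 0.062 (FDR 0.295). SMAD9 had 486.7 to 582.9 CPM in RA tumors and 464.7 to 577.5 CPM in control tumors (0.11 ± 0.079, FDR 0.564). SMAD5 had 106.7 to 131.8 CPM in RA tumors and 118.3 to 138.6 CPM in control tumors (−0.14 ± 0.069, FDR 0.341). The receptors BMPR1A, ACVR1 and ACVR2B and the partner SMAD4 had log2 fold changes of −0.16 to −0.055, and ACVR2A was at 0.059. BMPR1B had 2.09 to 3.76 CPM in RA tumors and 1.62 to 4.38 CPM in control tumors (0.29 ± 0.27, FDR 0.656), the highest being control tumor 4, the tumor with high ID1. None of the listed BMP ligands, antagonists, inhibitors, targets, co-receptors or TGF-beta components was called in tumors, against 0.284% of all genes. With the FDR alone, 1 of 7 ligands tested was higher, against 1.62% of all genes in either direction. Of 7 retinoic acid targets tested, 1 was called in tumors, RARB (1.19 ± 0.15, FDR 0.00194), and 2 passed the FDR. At 6 days in culture all 7 tested were called higher.

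**Figure D4:**
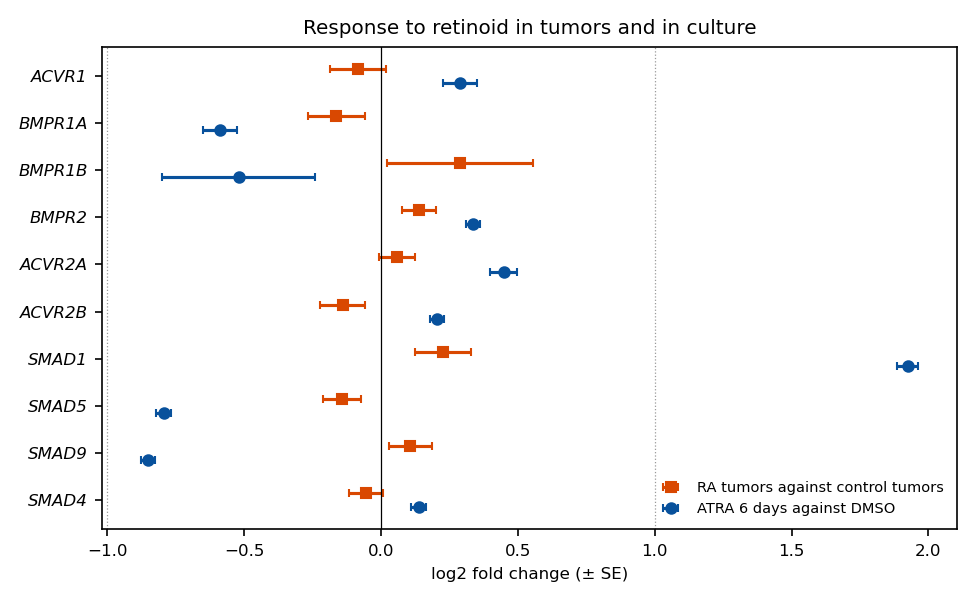
Log2 fold change (± SE, edgeR) of each gene for RA tumors against control tumors (squares; 4 and 5 tumors) and for ATRA at 6 days against DMSO (circles; 2 libraries each); dotted lines mark 2-fold. The tumor values lie between −0.16 and 0.29, and the culture value of SMAD1 is at 1.92.

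The tumor response was then compared with that of 6 days in culture in 1 fit of all 17 libraries, as the tumor effect minus the culture effect. Drug (13-cis against all-trans retinoic acid), duration, library kit and site of growth all differ between the arms and cannot be told apart. Nor can the time since the last dose, which is not stated for the tumors. SMAD1 differed most among the 10, with −1.73 ± 0.15 (FDR 2.43e-08), and was called; the share of all 25787 genes called was 20.9%, and their median was −0.12. SMAD9 (0.93 ± 0.12, FDR 2.26e-06), SMAD5 (0.62 ± 0.11, FDR 7.4e-05), ACVR2A (−0.42 ± 0.10), ACVR1 (−0.40 ± 0.14), BMPR1A (0.40 ± 0.15) and ACVR2B (−0.37 ± 0.13) passed the FDR under 2-fold, which makes 7 of 10 against 40.5% of all genes. SMAD4 (−0.22 ± 0.091, FDR 0.0602), BMPR2 (−0.23 ± 0.090, FDR 0.0528) and BMPR1B (0.78 ± 0.46, FDR 0.205) did not. The call for SMAD1 held without any single library, whereas the FDR of BMPR1A, at 0.0409, was lost in 10 of 13 fits with a library left out, among protein-coding genes and with the groups compared alone. ACVR2B lost it in 4 of the 13 and ACVR1 in 3 of the 13, each without either 6-day library and without DMSO library 2, and ACVR2B also without DMSO library 1. Both also lost it with no filter on low counts and with a replicate block (FDR 0.0513 for ACVR2B and 0.0561 for ACVR1), and ACVR2A lost it with no filter. The SMAD9 to SMAD1 ratio per kilobase was 14.2 to 17.1 in RA tumors and 15.3 to 19.3 in control tumors, where ATRA at 6 days had 1.64 and 1.67.

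Control tumors differed from DMSO cells in several of the genes, with kit and site of growth not separable. The median of all genes tested was 0.25 in this comparison. It was not used as a baseline for the values below, which depend on the scaling. When scaled and tested among protein-coding genes alone, ACVR2B was at 0.13, against −0.037 with all genes. BMPR1B had 1.62, 2.18, 2.67, 4.38 and 2.46 CPM in control tumors, against 1.119 and 1.41 CPM in DMSO cells. All 5 tumors lay above both cell libraries, and 74.9% of genes with a mean count of at least 10 lay apart in either direction. The log2 fold change of 1.08 ± 0.32 was called (FDR 0.00542), the 1 call among the 10, against 42.9% of all genes, and 7 of the 10 passed the FDR, against 71.7%. This call was lost without DMSO library 1 (0.93) and without control tumor 4 (0.85). SMAD9 rose to 464.7 to 577.5 CPM in control tumors, against 322.4 and 332.3 CPM in DMSO cells (0.64 ± 0.085), and ACVR2A to 49.1 to 55.8 CPM, against 34.5 and 35.3 CPM (0.55 ± 0.072), with ORC4 at 51.1 to 60.8 CPM, against 41.4 and 41.8 CPM. BMPR1A was lower at 14.9 to 19.3 CPM in control tumors, against 30.3 and 28.2 CPM in DMSO cells (−0.78 ± 0.10), as was ACVR1 at 11.5 to 15.4 CPM, against 20.6 and 19.1 CPM (−0.61 ± 0.096). SMAD5 (−0.30 ± 0.073) and BMPR2 (−0.30 ± 0.062) also passed as lower, but neither did when scaled and tested among protein-coding genes alone (both −0.13). SMAD5-AS1, which overlaps 6.75% of the SMAD5 exon bases on the opposite strand, had 30 to 77 counts in tumors and 0 to 2 in culture. SMAD1 (0.063 ± 0.11), SMAD4 (0.013 ± 0.063) and ACVR2B (−0.037 ± 0.088) did not pass the FDR. In the same comparison 11 of the 12 ID genes and other BMP targets were called lower, with a median of −2.85.

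Over the 17 libraries, the protein-coding genes whose log2 CPM followed SMAD1 most closely were SYNJ2 (Pearson r = 0.980), DUSP8 (r = 0.977) and XKR7 (r = 0.975), of 13263 compared. SYNJ2 encodes a phosphoinositide phosphatase and DUSP8 a phosphatase of stress-activated kinases. The points share libraries and treatment, and 277 of the 13263 genes had an r above 0.9, so the pattern is not particular to SMAD1. XKR7, for example, was at 1345 and 1332 CPM at 6 days, against 247.5 and 254.1 CPM in DMSO.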

How the data were processed

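Total RNA was sequenced on an Illumina NovaSeq. Culture libraries were made with Illumina's stranded kit (Ribo-Zero Plus) and tumor libraries with a KAPA HyperPrep kit (RiboErase). Per the submitters' processing notes, the authors used Trim Galore 0.4.4, STAR 2.7.10a and RSEM 1.3.3 with hg38, and deposited expected counts per gene, in 1 table for culture and 1 for tumors; 7.55% and 14.7% of these values were not whole. The annotation release, the strand setting and any removal of mouse reads are not given in the sources used here. Counts were rounded to whole numbers. The culture table also lists 92 spike-in rows, left out.

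Genes passing filterByExpr (minimum count 10) were tested with edgeR 4.0.16 in R 4.3.3 (TMM scaling, robust quasi-likelihood test, two-sided, Benjamini-Hochberg adjustment over all genes). Comparisons within culture used its 8 libraries, within tumors the 9 tumor libraries, and between them all 17; the fits held 20237, 21098 and 25787 genes. DESeq2 1.42.0, which the authors used, was an alternative, as were its size factors, other filters, a fit without robust estimation, a replicate block, protein-coding genes, other sample sets and each library left out. The test was checked on simulated data. CPM are scaled over all 17 libraries. Exon lengths, positions and overlaps come from GENCODE v44 (hg38); promoters come from RefSeq. The error of assigning reads to genes was not modelled separately.

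The genes and lists were chosen with earlier results of these data known. All 10 genes are named in every comparison, and from each pathway list at most 4 called genes with the widest changes, with ID1 to ID4 always; FKBP1A and SMAD2 were added after their values were seen, as were the other genes given only as checks. For genes called against DMSO, the 3 protein-coding genes with the highest correlation are named. The value of 1 listed antagonist is not reported here.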

Additional observations from a re-analysis of the deposited data

Results flagged for a closer look

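Among the levels of the 10 genes in the tumors, 20 groups were checked for a tumor far from its group, and chance marks about 1 in 20. BMPR1B in RA tumor 4 was the lowest of its 4 tumors, at 2.09 CPM, where the other 3 had 3.53 to 3.76 CPM. ACVR2A in control tumor 2 was the highest of its 5 tumors, at 55.8 CPM, where the other 4 had 49.1 to 50.5 CPM; ORC4, on the opposite strand, was also highest in that tumor, at 60.8 CPM, and its part was not tested.

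The response to retinoid differed between tumors and 6 days of culture for 7 of the 10 genes at an FDR under 0.05, against 40.5% of all genes. The difference is the tumor log2 fold change minus that in culture, with all 17 libraries in 1 edgeR fit. The differences were −1.73 for SMAD1, 0.93 for SMAD9, 0.62 for SMAD5, −0.42 for ACVR2A, −0.40 for ACVR1, 0.40 for BMPR1A and −0.37 for ACVR2B. BMPR1A, ACVR2A, ACVR1 and ACVR2B lost the FDR in some alternatives, and with no filter on low counts 4 of the 10 passed. Kit, drug, duration, time since the last dose and site of growth cannot be told apart in these differences.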

How the results depend on the processing

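The rise of SMAD1 at 3 and 6 days, its difference between tumors and culture, and the falls of SMAD5, SMAD9 and BMPR1A at 6 days passed the FDR in every alternative run. So did the smaller rises of BMPR2, ACVR2A and ACVR1 at 6 days. Of 1180 values of the 10 genes under alternatives, 1064 kept direction and side of the FDR threshold, 58 lost the FDR, 24 gained it and 34 changed sign. The 2-fold call was not compared in this count. The 34 belong to 10 results near 0, none past the FDR.

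For ACVR2B at 1 day the sign turned with DESeq2 size factors (−0.0067), DESeq2 (−0.0067) and all 17 libraries in 1 fit (−0.015), and values without a library ran from −0.0099 (without DMSO library 1) to 0.011. For BMPR2 at 1 day it turned in the same 3 settings (−0.00023, −0.00025 and −0.0081), with −0.0029 to 0.017 without a library. For SMAD4 between 1 and 3 days it turned in the same 3 (−0.0033, −0.0033 and −0.0013), with −0.017 to 0.048 without a library. For ACVR1 between 3 and 6 days it turned in the same 3 (0.0012, 0.0015 and 0.053), with a filter of 1 CPM (0.017) and with protein-coding genes (0.038), with −0.065 to 0.015 without a library. In control tumors against DMSO cells it turned for ACVR2B with DESeq2 size factors (0.0036), DESeq2 (0.0037), a filter of 1 CPM (0.017), protein-coding genes (0.13) and the 2 groups alone (0.0015), with −0.069 to 0.033 without a library. There it turned for SMAD4 with no filter (−0.080) and the replicate block (−0.031), with −0.0049 to 0.053 without a library, and for SMAD1 with no filter (−0.031). Without a library, BMPR1B ran from −0.12 to 0.20 at 1 day, from −0.19 to 0.13 at 3 days and from −0.16 to 0.013 between 1 and 3 days.

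With no filter, 0 of the 10 genes were called in control tumors against DMSO cells, 2 in tumors minus culture (SMAD1 and SMAD9), where 4 passed the FDR, and 124 of all genes in RA tumors, against 60. With all 17 libraries in 1 fit, 1 of the 10 passed the FDR at 1 day, 3 at 3 days, 7 at 6 days (without ACVR2B and SMAD4) and 0 between 1 and 3 days, and the genes called were 237 at 1 day, 425 between 1 and 3 days and 157 in RA tumors. DESeq2 called 308 genes at 1 day, against 554 in edgeR, and 511 between 1 and 3 days, against 827. Among protein-coding genes 4135 were called at 6 days, against 6304, and 4681 in control tumors against DMSO cells, against 11056. Fewer genes were tested there, and the scaling differed as well. The causes of these shifts were not tested.

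With a library left out in turn, the number of the 10 genes called was 0 to 1 at 1 day, 0 to 1 in control tumors against DMSO cells and 1 to 2 in tumors minus culture, the second being BMPR1B (without control tumor 4). The number past the FDR was 3 to 5 at 1 day, 5 to 7 at 3 days, 9 to 10 at 6 days, 0 in RA tumors, 6 to 7 in control tumors against DMSO cells and 4 to 8 in tumors minus culture, and the genes called in RA tumors were 24 to 160.

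Libraries share replicate numbers, but same-numbered libraries did not deviate together (correlations of −0.040 to −0.00027 over 12 pairs in culture and −0.34 to 0.12 over 4 pairs in tumors; 1 of 4 RA tumors correlated best with its own number). In culture, the 2 libraries of a group deviate as mirror images, so replicates 1 and 2 give the same correlation and are not separate evidence. With the replicate block, 12 genes were called in RA tumors, against 60, and 0 of the 10 in control tumors against DMSO cells; ACVR1 lost the FDR at 1 day, and ACVR1 and ACVR2B lost it in tumors minus culture. Depth limits BMPR1B most, with 22 to 96 counts a library.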
